A study of Mus musculus with 18 samples.

Results

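This account describes ribosome-bound RNA in the livers of mice fed a high-fat diet against that of mice fed normal chow, over all genes. The RNA was poly(A) RNA recovered from ribosome-nascent chain complexes (RNC), the particles of ribosomes, the messages they are reading and the unfinished proteins they carry. Of the 18 libraries in the series, 6 were chosen by their labels: the RNC libraries of 3 livers on the high-fat diet (HFD) and of 3 livers on chow (control). All 24539 genes in each file were considered, and 11480 had enough reads to be tested.

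The animals were wild-type C57BL/6 males, put on their diet at 8 weeks of age and kept on it for 8 weeks, so that they were 16 weeks old at sampling. Controls ate normal chow and the others the high-fat diet, and no other treatment, allele or transgene is given for either group. Each liver also gave a library of total poly(A) RNA (mRNA), used here only to set beside the RNC values. Another diet, the high-fat diet with lycopene, enters only an alternative fit. For the RNC, liver was lysed with cycloheximide, which holds ribosomes on the message, and the complexes were pelleted through a sucrose cushion. RNA pelleted in this way is called ribosome-bound here, which was not tested, and the nuclear RNA Neat1 was also counted in it. The counts carry no position of a ribosome on a message. The tissue was whole liver, in which fewer cells of a type and less RNA per cell cannot be told apart.

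The liver takes up fatty acids from blood, makes new ones from sugar, joins them into triglyceride and phospholipid, and either burns them, stores them in droplets or exports them on lipoproteins. SREBP-1c, ChREBP and LXR are known to drive the synthetic genes, and PPARα, a nuclear receptor that binds fatty acids, the genes of oxidation. The abundance of a message on ribosomes follows both how much of it there is and how well it is loaded, which is why an RNC value is read beside the mRNA value of the same livers.

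The 6 RNC libraries held 5535100 to 12742436 listed reads, with reads from 13324 to 14450 genes, and 3 reads stood for 0.235 to 0.542 CPM (reads scaled to library size) in a single library. HFD replicate 1 stood apart. It was the shallowest library, at 5535100 reads, and lay at -37.8 on the first principal component (49.1% of the variance), where the other 5 lay between -14.8 and 29.8. The second component (27.9%) held the 3 control libraries at 8.12 to 22.1 and the 3 HFD libraries at -18.9 to -11.1. In HFD replicate 1 the nuclear RNA Neat1 stood at 251 CPM against 46.2 and 57.1 in HFD replicates 2 and 3 and 138 to 184 in controls, and its part in the results was not tested. All levels below are TMM-scaled CPM in RNC unless mRNA is named, means are given ± SD (n = 3), fold changes are HFD over control, and "called" means an adjusted p under 0.05 in edgeR's quasi-likelihood test over all 11480 genes.

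In the 3 HFD livers 32 genes were called, 20 higher and 12 lower. These are 0.279% of the genes tested, 0.174% for the higher and 0.105% for the lower calls. In all 32 the 3 HFD libraries lay wholly on one side of the 3 control libraries. Of all tested genes, 7.59% had their 3 HFD libraries above every control library and 6.81% had them below. The higher genes held the lipid transport and synthesis genes Mfsd2a, Apoa4, Mogat1, Elovl5 and Gpam and the clock genes Nr1d2 and Tef, and the lower held Cxcl1, Enho, Ppard, Sox9, Gstp1 and Cyp2c70.

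The number of calls moved with the libraries in the fit. With the replicate number as a block it was 87, or 0.758% of the genes tested, and included all 32. Without HFD replicate 1 it was 304 of 11690 genes tested, 159 higher and 145 lower, of which 31 were among the 32. List counts given below without that library are to be read against these numbers. Without control replicates 1, 2 and 3 it was 7, 1 and 1, and without HFD replicates 2 and 3 it was 23 and 2. The 23 without HFD replicate 2 were 15 higher and 8 lower. Of the 11675 genes tested in that fit 5823 lay above control. List counts without HFD replicate 2 are to be read against these numbers. In a fit that also held the 3 libraries of the lycopene diet, only Mfsd2a was called. Those 3 libraries had reads from 8940 to 10037 genes, against 13324 to 14450 in the 6 used here. The part of this difference in the count was not tested. Mfsd2a was the 1 gene called in all 15 alternatives, and Apoa4 was called in 12. The other 30 were lost without control replicate 2, control replicate 3 or HFD replicate 3, and Cxcl1 also without HFD replicate 1. All 32 genes kept their direction in every alternative. As their groups did not overlap, leaving out 1 library could hardly reverse it.

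**Figure D1:**
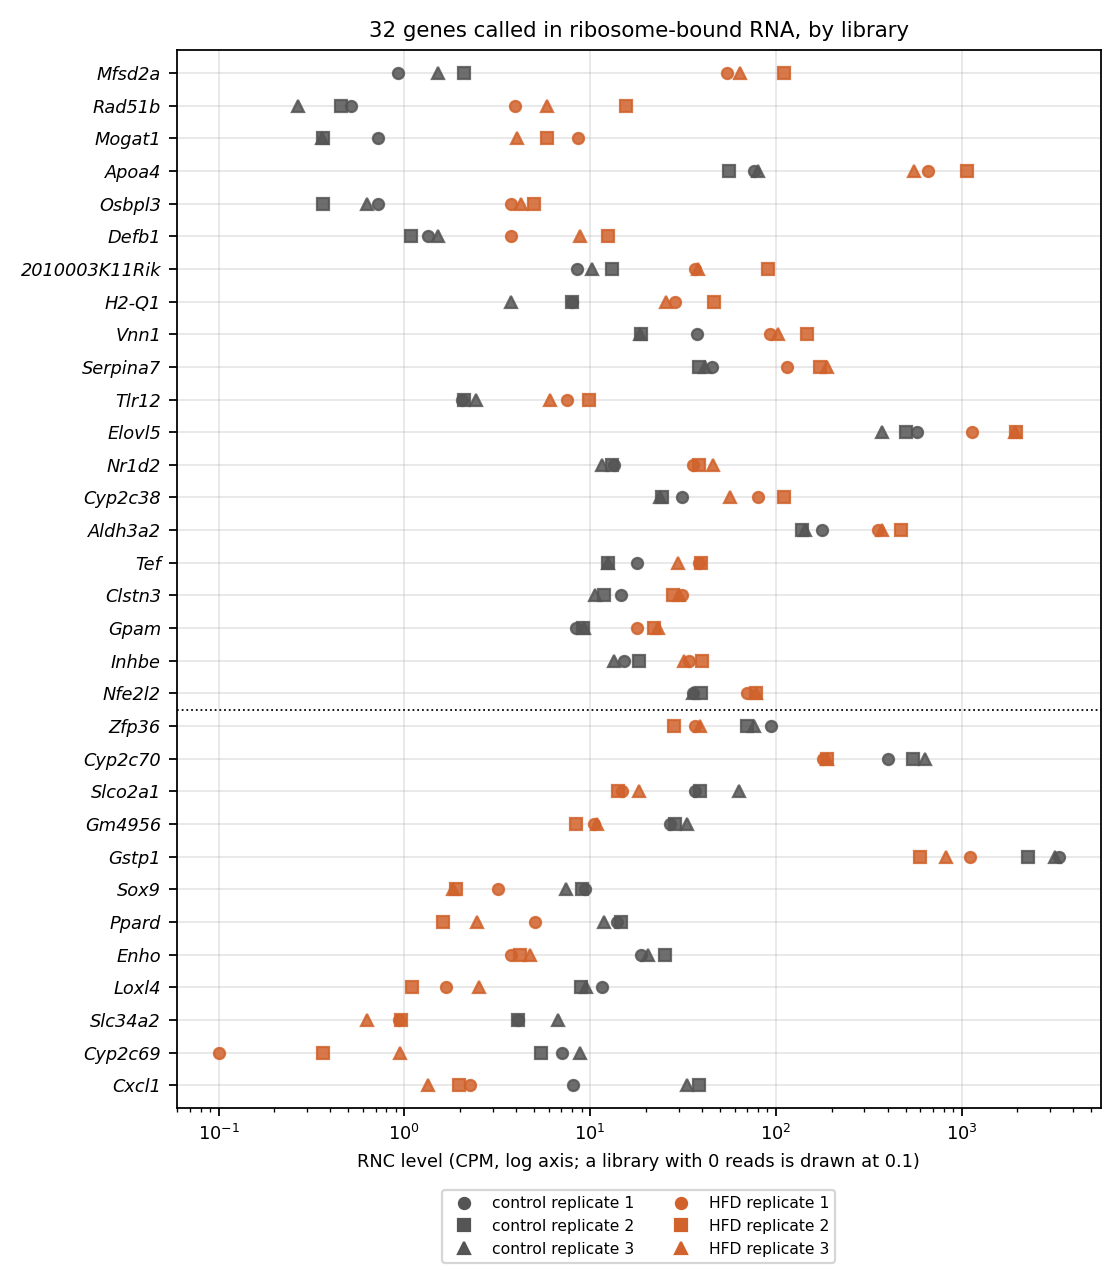
RNC level of the 32 called genes (TMM-scaled CPM, log axis) in each of the 3 control and 3 HFD libraries, 1 point per library, ordered by fold change; the dotted line parts the 20 higher from the 12 lower genes. In every row the 3 HFD points lie on one side of the 3 control points; Cyp2c69 had 0 reads in HFD replicate 1 and is drawn at 0.1.

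The bases just upstream of the transcription start are shown for 4 of the called genes, since they carry short motifs that nuclear receptors and clock proteins are known to bind. They are RefSeq reference sequence of GRCm38.p6, 250 bases long and ending at the base before the start, in the gene's own direction. Mfsd2a lies on the minus strand at chr4:122961189-122961438, Elovl5 on the plus strand at chr9:77917115-77917364, Tef on the plus strand at chr15:81802423-81802672 (the first of its 2 starts) and Cyp2c70 on the minus strand at chr19:40187287-40187536. Capitals mark AGGTCA, the half-site of many nuclear receptors, CACGTG, the E-box bound by CLOCK-BMAL1 and other helix-loop-helix factors, and TATAAA, the TATA box, found on either strand.
Mfsd2a: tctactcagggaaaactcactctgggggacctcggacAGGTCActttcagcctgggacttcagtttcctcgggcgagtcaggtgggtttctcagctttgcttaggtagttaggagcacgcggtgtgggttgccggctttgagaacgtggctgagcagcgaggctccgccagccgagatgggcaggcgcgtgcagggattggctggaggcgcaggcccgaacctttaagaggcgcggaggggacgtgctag
Elovl5: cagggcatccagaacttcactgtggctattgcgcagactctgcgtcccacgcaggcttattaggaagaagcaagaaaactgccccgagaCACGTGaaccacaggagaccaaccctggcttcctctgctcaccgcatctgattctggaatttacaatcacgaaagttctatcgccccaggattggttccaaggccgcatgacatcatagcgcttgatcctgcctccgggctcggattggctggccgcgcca
Tef: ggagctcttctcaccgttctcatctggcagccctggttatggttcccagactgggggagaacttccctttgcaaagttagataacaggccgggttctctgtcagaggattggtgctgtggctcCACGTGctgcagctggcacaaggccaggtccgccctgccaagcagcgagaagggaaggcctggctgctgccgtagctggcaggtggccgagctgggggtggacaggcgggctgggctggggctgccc
Cyp2c70: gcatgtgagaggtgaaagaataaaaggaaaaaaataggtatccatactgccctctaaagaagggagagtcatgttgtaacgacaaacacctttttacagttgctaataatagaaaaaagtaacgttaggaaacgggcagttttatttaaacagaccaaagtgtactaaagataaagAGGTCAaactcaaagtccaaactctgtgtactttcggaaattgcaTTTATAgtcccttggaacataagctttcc

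Mfsd2a carries AGGTCA at -213, Elovl5 CACGTG at -161, Tef CACGTG at -127 and Cyp2c70 AGGTCA at -74, counted to the first base of the motif from the start. Cyp2c70 also carries the TATA box at -29 on the opposite strand, so that the strand shown reads TTTATA. Such windows were found for 26 of the 32 called genes and for 9003 of the tested genes (11507 windows, as some genes have several starts). AGGTCA stood in 11.4% of all windows, in 4 of the 22 windows of the 17 higher genes (2010003K11Rik, Gpam, Mfsd2a and Nr1d2) and in 1 of the 9 windows of the 9 lower genes (Cyp2c70). CACGTG stood in 8.33% of all windows, in 4 of the higher genes' windows (Aldh3a2, Elovl5 and both of Tef) and in 0 of the lower genes'. TATAAA stood in 6.87% of all windows, in 3 of the higher genes' windows (of Cyp2c38 and Serpina7) and in 2 of the lower genes' (Cyp2c70 and Slco2a1). The windows of Serpina7 overlap and hold the same site. TAGGTCA, which holds AGGTCA and is the longer site of the REV-ERB and ROR receptors, was in 1.89% of all windows and in 0 of the called genes'. The D-box letters TTATGTAA and TTACGTAA, bound by TEF and its relatives, were in 0.513% and 0.191% of all windows and in 0 of the called genes'. TTCNNNGAA, the STAT site, was in 6% of all windows, in 0 of the higher genes' and in 1 of the lower genes' (Zfp36), and TCACNCCAC, a sterol regulatory element, was in 1.14% and in 0 of the called genes'. A match here describes letters in a window, with no measurement of binding.

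Among the genes that move lipids between cells and particles, Mfsd2a rose most. It encodes a transporter that carries lysophosphatidylcholine, a phospholipid with 1 fatty acid chain, into cells. Mfsd2a stood at 0.925, 2.09 and 1.52 CPM in control replicates 1, 2 and 3 and at 54.7, 111 and 63.9 CPM in HFD replicates 1, 2 and 3. All HFD livers were far above all controls, and the message was scarce in chow livers, where 49 reads were counted over 3 libraries against 2615 in HFD. The level rose 49.97-fold (log2 5.64 with an SE of 0.38, adjusted p = 0.00067; chromosome 4, 122946850 to 122961194, GRCm38).

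Apoa4 encodes an apolipoprotein that rides on triglyceride-rich particles and high-density lipoprotein. Its levels were 76.4, 56.2 and 80.03 CPM in control and 656, 1068 and 552 CPM in HFD livers. The groups were far apart, with HFD replicate 2 highest, and the level rose 10.7-fold (log2 3.42, SE 0.29, adjusted p = 0.00247; chromosome 9, 46240844 to 46243458). Osbpl3, which encodes a lipid transfer protein of the oxysterol-binding family, stood at 0.72, 0.363 and 0.627 CPM in control livers. In HFD livers it stood at 3.75, 4.99 and 4.27 CPM, a 7.58-fold rise (adjusted p = 0.0327) from 18 reads over the 3 control libraries. The HFD livers were close to each other and well clear of the controls.

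Of the other 23 tested genes of phosphatidylcholine and lysophospholipid metabolism none was called, 17 lay above control, and the list of 24 had a median log2 fold change of 0.20 against 0.02 over all genes. Chpt1, which makes phosphatidylcholine from diacylglycerol, stood at 267 ± 33.6 against 194 ± 19.4 CPM (adjusted p = 0.529). Lpcat2, a lysophosphatidylcholine acyltransferase, stood at 2.67 ± 0.619 against 1.5 ± 0.114 CPM (adjusted p = 0.609), and neither gene's groups overlapped. Chka, the first kinase of the choline pathway, went the other way at 45.8 ± 32.6 against 91.1 ± 32.1 CPM, with overlap between the groups.

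Genes that build fatty acids and triglyceride stood higher in HFD livers as a list. Of 25 tested members 22 lay above control, against 52.5% of all tested genes, 3 were called higher and none lower. In 13 all HFD libraries were above all controls and in 0 below, against 7.59% and 6.81% of all tested genes. The median log2 fold change was 0.71. The 3 calls were Mogat1 and Gpam, acyltransferases of glycerolipid synthesis, and the elongase Elovl5.

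Elovl5, which lengthens polyunsaturated fatty acids, rose as well. Its level was 574, 504 and 374 CPM in control and 1142, 1974 and 1947 CPM in HFD livers. Control replicate 1, the highest control, lay well below HFD replicate 1, the lowest HFD liver, and the level rose 3.48-fold (log2 1.80, SE 0.26, adjusted p = 0.0358; chromosome 9, 77917365 to 77984519). Gpam encodes the mitochondrial acyltransferase that starts glycerolipid synthesis. It stood at 8.43, 9.17 and 9.32 CPM in control and 18, 22.2 and 23.3 CPM in HFD livers, a 2.37-fold rise (adjusted p = 0.0455) with little spread within either group. Mogat1 makes diacylglycerol from monoacylglycerol. It was almost absent from chow livers, at 0.72, 0.363 and 0.358 CPM (15 reads in all), and stood at 8.61, 5.87 and 4.04 CPM in HFD livers, a 12.5-fold rise (adjusted p = 0.026).

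Fasn, the multi-domain enzyme that makes palmitate, stood at 213, 249 and 158 CPM in control and 415, 500.2 and 563 CPM in HFD livers. The groups did not overlap and the ratio was 2.39, but it was not called (adjusted p = 0.0623; 0.0207 with the replicate block). The same held for 3 members chosen after their values were seen. Malic enzyme Me1, which supplies NADPH, stood at 628 ± 167 against 232 ± 57.5 CPM (adjusted p = 0.0756; 0.0171 with the block). The elongase Elovl6 stood at 80.9 ± 24.3 against 32.5 ± 7.5 CPM (adjusted p = 0.104; 0.00642 with the block). The lipid droplet enzyme Pnpla3 stood at 8.77 ± 5.96 against 0.971 ± 0.28 CPM (adjusted p = 0.0756; 0.0171 with the block). Acaca, the acetyl-CoA carboxylase that commits carbon to synthesis, was tight within groups, at 59.95 ± 2.64 against 36.7 ± 2.61 CPM, and was not called by either fit (adjusted p = 0.146; 0.108 with the block). Without HFD replicate 1, 12 of the 25 genes were called higher and 22 still lay above control, with a median of 0.86. Over all 11690 genes tested in that fit, 159 were called higher and 5728 lay above control. Without HFD replicate 2 the counts were 3 called and 22 above control, with a median of 0.72, against 15 called higher over all 11675 genes tested.

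**Figure D2:**
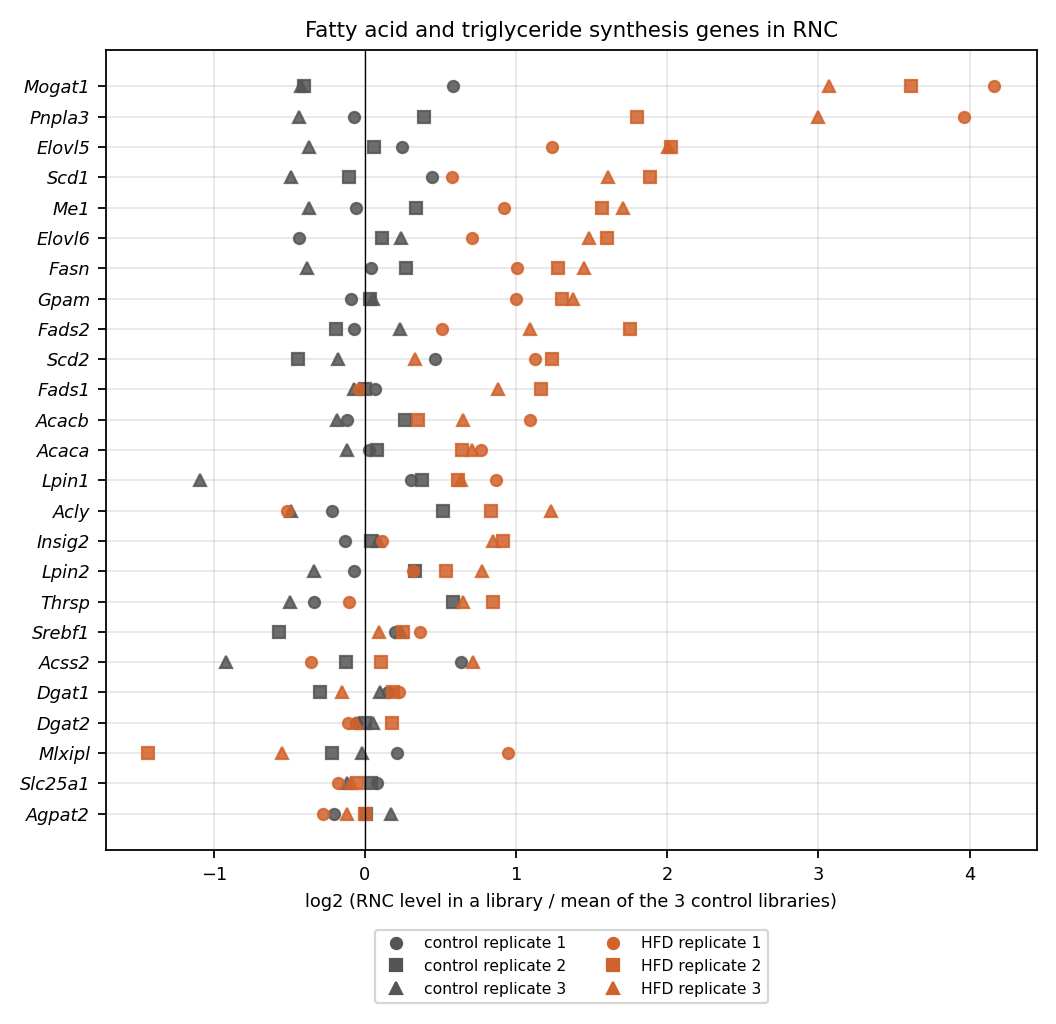
RNC level of the 25 tested genes of fatty acid and triglyceride synthesis in each library, as log2 of the level over the mean of the 3 control libraries, 1 point per library. The HFD points lie to the right of every control point in 13 genes, and at the bottom the points of the groups mix.

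Genes answering to PPARα also stood higher. Of 23 tested, 21 lay above control, 2 were called higher (Vnn1 and Aldh3a2) and none lower. In 14 all HFD libraries were above all controls, against 7.59% of all tested genes. The list median of the log2 fold change was 0.87. Vnn1, a pantetheinase that frees cysteamine and pantothenate, stood at 37.7, 18.7 and 18.6 CPM in control and 92.7, 147 and 102 CPM in HFD livers. Every HFD liver was more than 2 times the highest control, a 4.56-fold rise (adjusted p = 0.0353). Aldh3a2, which oxidises long-chain fatty aldehydes to fatty acids, stood at 177, 139 and 144 CPM in control and 354, 469.6 and 371 CPM in HFD livers. Its groups were far apart, and the level rose 2.6-fold (adjusted p = 0.0353).

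Fgf21, a fasting and nutrient hormone made by the liver, stood at 0.103, 2.54 and 0.717 CPM in control and 11.4, 7.63 and 11 CPM in HFD livers. The groups did not overlap, but it was not called (adjusted p = 0.101). Abcd2, a peroxisomal transporter of very long-chain fatty acids, stood at 2.57, 3.09 and 1.88 CPM in control and 5.62, 36.8 and 16.6 CPM in HFD livers, with HFD replicate 2 far above the other two (adjusted p = 0.0841; 0.022 with the replicate block). The message of the receptor itself, Ppara, stood at 108 ± 20.1 against 61 ± 10.4 CPM (adjusted p = 0.213). Without HFD replicate 1, 7 of the 23 genes were called higher and the median was 1.09. Without HFD replicate 2 the counts were 2 called and 22 above control, with a median of 0.60.

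Genes of mitochondrial and peroxisomal beta-oxidation and of ketone synthesis were almost all above control, but none was called. Of 31 tested, 28 lay above control, 9 with no overlap (against 7.59% of all tested genes), and the median was 0.46. Acaa1b, a peroxisomal thiolase, stood at 1084 ± 224 against 530.2 ± 148 CPM (adjusted p = 0.159). Crat, which moves acetyl groups to carnitine, stood at 42.8 ± 10.6 against 23.1 ± 4 CPM (adjusted p = 0.207). Cpt1a, the gate for fatty acid entry into mitochondria, stood at 114, 147 and 125 CPM in control and 152, 326 and 213 CPM in HFD livers (adjusted p = 0.37), with HFD replicate 2 highest. The median moved with 1 library: without HFD replicate 2 it was 0.22, with 25 genes above control, and without HFD replicate 1 it was 0.59, with 8 genes called higher.

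Of 25 tested genes for fatty acid uptake and lipid droplets, 20 lay above control and none was called. In 10 all HFD libraries were above all controls, against 7.59% of all tested genes. The list median was 0.37. Cd36, the fatty acid translocase of the cell surface, stood at 39.1, 21.1 and 18.1 CPM in control and 71.3, 206 and 98.7 CPM in HFD livers (adjusted p = 0.0757; 0.2215 with the replicate block). Cidec, which fuses lipid droplets, stood at 1.13, 0.817 and 0.269 CPM in control and 3.18, 10.1 and 5.38 CPM in HFD livers (adjusted p = 0.0756; 0.0171 with the replicate block). In both genes each HFD liver was above each control, and in both HFD replicate 2 was highest. The fatty acid-binding protein gene Fabp2 stood at 257 ± 107 against 82.7 ± 7.08 CPM (adjusted p = 0.0764; 0.011 with the block), and the droplet coat gene Plin4 at 6 ± 2.56 against 1.15 ± 0.371 CPM (adjusted p = 0.082; 0.011 with the block). With HFD replicate 1 left out 5 of the 25 were called higher, and with HFD replicate 2 left out 15 lay above control.

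Among 20 apolipoprotein and lipoprotein-assembly genes, Apoa4 was the only call. Of the 20, 15 lay above control, and the median was 0.24, or 0.11 without HFD replicate 1. Apoc2, the cofactor of lipoprotein lipase, stood at 412 ± 75.6 against 219 ± 37.7 CPM (adjusted p = 0.143). Apoa5, a regulator of plasma triglyceride, stood at 939.9 ± 125 against 591 ± 10.3 CPM (adjusted p = 0.219). Apom, carried on high-density lipoprotein, was lower in value, at 28.6 ± 6.99 against 49.5 ± 4.43 CPM (adjusted p = 0.243), and the groups of these 3 genes did not overlap. Apoa1, the main protein of high-density lipoprotein, stood at 8129.5 ± 1948 against 10547 ± 441 CPM with overlapping groups.

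Genes of cholesterol synthesis and uptake showed no common direction. Of 25 tested, 13 lay above control, none was called, and the median was 0.01. Srebf2, the regulator of the pathway, stood at 15.7, 16.6 and 19.1 CPM in control and 7.49, 12.3 and 10.4 CPM in HFD livers (adjusted p = 0.342). Hmgcs1, its first dedicated enzyme, stood at 924 ± 221 against 672 ± 361 CPM.

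Of 26 bile acid genes 1 was called, Cyp2c70, and it fell. Its enzyme makes the muricholic acids that set mouse bile apart from human bile. Cyp2c70 stood at 404, 546 and 636 CPM in control and 180.1, 188 and 189 CPM in HFD livers. The 3 HFD livers were within a few per cent of each other and the lowest control was more than 2 times higher, and control was 2.85-fold above HFD (log2 -1.51, SE 0.20, adjusted p = 0.0327; chromosome 19, 40153361 to 40187286). The other 25 genes were not called, and the list median was 0.12. Cyp7a1, the rate-limiting enzyme of bile acid synthesis, stood at 29.4, 27.5 and 26.3 CPM in control and 28.6, 49.3 and 19.4 CPM in HFD livers (adjusted p = 0.926). Nr0b2, the repressor known as SHP, stood at 29.4, 44.5 and 71.6 CPM in control and 30.7, 20.3 and 22.7 CPM in HFD livers (adjusted p = 0.365), with HFD replicate 1 inside the control range.

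Genes for drug-metabolising cytochrome P450 enzymes lay mostly below control. Of 32 tested, 6 lay above control, 1 was called higher (Cyp2c38) and 1 lower (Cyp2c69), and the median was -0.20. Cyp2c38 stood at 31.3, 24.5 and 23.7 CPM in control and 80.3, 111 and 56.8 CPM in HFD livers, a 3.13-fold rise (adjusted p = 0.0448). Cyp2c69 stood at 7.1, 5.45 and 8.78 CPM in control and 0, 0.367 and 0.949 CPM in HFD livers (227 and 17 reads), 13.5-fold higher in control (adjusted p = 0.039). Cyp2c69 and Cyp2c38 belong to a mouse gene family with several closely related copies, and the labels and headers do not say how reads that fit several copies were assigned, so their values are uncertain. Cyp3a11, the main CYP3A drug-metabolising gene, stood at 6332, 2884 and 5735 CPM in control and 2003, 2080.1 and 1808 CPM in HFD livers, with no overlap (adjusted p = 0.118). Cyp2c55 stood at 2.47 ± 0.819 against 10.6 ± 4.31 CPM (adjusted p = 0.0756; 0.0181 with the replicate block). Leaving out HFD replicate 1 gave 2 higher and 7 lower calls among 34 tested genes, with a median of -0.20.

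Gstp1, which joins glutathione to reactive compounds, fell. It stood at 3339, 2288 and 3197 CPM in control and 1113, 601 and 829 CPM in HFD livers, 3.47-fold higher in control (log2 -1.80, SE 0.26, adjusted p = 0.0358; chromosome 19, 4035411 to 4037912). The highest HFD liver lay well below the lowest control, and Gstp1 shares much of its sequence with Gstp2. The other conjugation enzymes had no common direction, with 17 of 34 above control, 0 called and a median of -0.02.

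Gstp1 belongs to a list of 23 genes that are expressed more in male than in female mouse liver, a pattern set by pulsatile growth hormone. Of the 23, 2 lay above control, 1 was called lower and the median was -0.60. In 7 all HFD libraries lay below all controls, against 6.81% of all tested genes. HFD replicate 2 was the lowest of the 6 libraries for 21 of the 23. Hsd3b5, a steroid dehydrogenase, stood at 254, 319.7 and 329.5 CPM in control and 201, 6.9 and 175 CPM in HFD livers (adjusted p = 0.844). Serpina1e, an alpha-1-antitrypsin copy, stood at 7703, 10402 and 12222 CPM in control and 1897, 99.8 and 1357 CPM in HFD livers (adjusted p = 0.329). The urinary protein gene Mup1 stood at 5787, 10154 and 8477 CPM in control and 9493, 533 and 5402 CPM in HFD livers, where HFD replicates 1 and 3 were close to the controls. Serpina1 and Mup genes are families of near-identical copies, so single members are uncertain, and Hsd3b5 and Serpina1e were named after their values were seen.

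The same liver stood out in mRNA, where HFD replicate 2 was lowest for 18 of the 23 genes and Hsd3b5 stood at 333, 146 and 233 CPM in control and 251, 9.11 and 204 CPM in HFD. Elovl3, a very long-chain fatty acid elongase, was low in all 3 HFD livers, at 554, 521 and 509 CPM in control and 222, 139.9 and 312 CPM in HFD (adjusted p = 0.127; 0.0274 with the replicate block). So was Cyp7b1, an oxysterol hydroxylase, at 389.6, 487 and 536 and 229, 85.8 and 172 CPM (adjusted p = 0.111; 0.0499 with the block), and Ugt2b1 at 728, 686 and 943 and 406, 344 and 486 CPM (adjusted p = 0.137; 0.0433 with the block). Without HFD replicate 2 the list median was -0.31, with 4 genes above control and 2 called lower. Over all 11675 genes tested in that fit, 5823 lay above control and 8 were called lower. Without HFD replicate 1 the list median was -1.12, with 1 above control and 3 called lower.

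**Figure D3:**
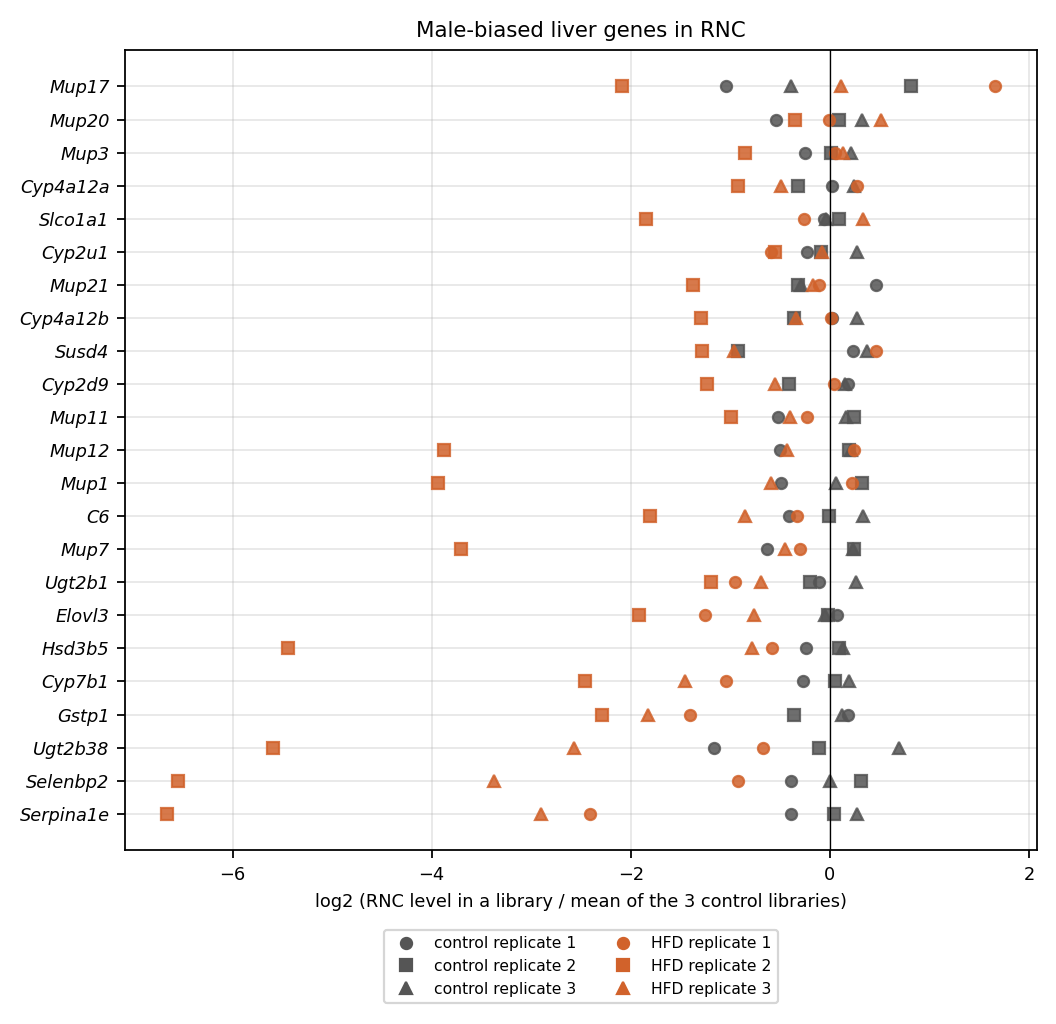
RNC level of the 23 male-biased liver genes in each library, as log2 of the level over the mean of the 3 control libraries, 1 point per library. HFD replicate 2 is the lowest point for 21 of the 23 genes, while Gstp1, Cyp7b1, Elovl3 and Ugt2b1 have all 3 HFD points below the controls.

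Of 18 female-biased liver genes only 3 had enough reads to be tested, which leaves no list to describe. Cyp17a1, a steroid hydroxylase, stood at 0.72, 1.09 and 0.807 CPM in control and 2.62, 29.6 and 9.42 CPM in HFD livers (adjusted p = 0.0888; 0.00404 with the replicate block), and each HFD liver was above each control. Slc22a27, an organic anion transporter gene, stood at 1.03, 0.363 and 0.0896 CPM in control and 1.31, 13.4 and 3.64 CPM in HFD livers (adjusted p = 0.181). Fmo2, a flavin monooxygenase gene, lay below, at 0.614 ± 0.46 against 1.51 ± 0.822 CPM with overlap (adjusted p = 0.727). Cyp2b9, the first gene of the list, was not tested and had 1 read over the controls, with 0, 37.7 and 0.949 CPM in HFD replicates 1, 2 and 3. In the growth hormone and IGF list, 4 of 16 lay above control, none was called, and the median was -0.24 (-0.61 without HFD replicate 1). The binding protein genes Igfbp1 and Igfbp2 stood at 16.9 ± 3.76 against 31.6 ± 1.87 CPM and 222 ± 32.7 against 439 ± 137 CPM, with no overlap (adjusted p = 0.146 and 0.212). Igfbp3, which carries most IGF1 in blood, stood on the other side, at 25.7 ± 8.58 against 12.6 ± 2.05 CPM with no overlap (adjusted p = 0.217). Ghr, the growth hormone receptor, stood at 453 ± 77.1 against 479 ± 77.1 CPM.

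Clock genes lay on both sides of control, and 2 of them were called higher. Nr1d2 encodes REV-ERB-beta, a receptor that represses the core clock gene Arntl. It stood at 13.5, 13.1 and 11.7 CPM in control and 35.8, 38.5 and 45.9 CPM in HFD livers, a 3.15-fold rise (log2 1.66, SE 0.18, adjusted p = 0.0139; chromosome 14, 18204056 to 18239106). Tef encodes a leucine zipper factor of the PAR family that the clock drives. It stood at 17.9, 12.5 and 12.5 CPM in control and 38.4, 39.3 and 29.7 CPM in HFD livers, a 2.5-fold rise (adjusted p = 0.0484). In both genes every HFD liver was above every control.

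Of the 17 clock genes tested, 9 lay above control, 5 with no overlap, and 5 lay wholly below, with a median of 0.02. Over all tested genes 7.59% lay wholly above control and 6.81% wholly below. Dbp, the closest relative of Tef, stood at 1.13, 1.27 and 1.17 CPM in control and 3, 25.6 and 11.8 CPM in HFD livers (adjusted p = 0.0757; 0.011 with the replicate block), and Per3, a period gene, at 0.514, 0.635 and 0.358 and 1.31, 3.82 and 3.09 CPM (adjusted p = 0.107). Arntl, the core activator BMAL1, stood on the other side, at 10.4, 15.4 and 13.9 CPM in control and 8.24, 3.16 and 7.12 CPM in HFD livers (adjusted p = 0.329). HFD replicate 1 was the lowest HFD liver for Dbp and Per3 and the highest for Arntl. The labels give no hour of sampling, so diet and hour cannot be told apart. Among 18 clock genes tested without HFD replicate 1, 4 were called higher and 2 lower.

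Nfe2l2, which encodes NRF2, the activator of antioxidant genes, stood at 36, 39.6 and 35.8 CPM in control and 70.03, 78.4 and 78.2 CPM in HFD livers. All HFD livers were above all controls, and the level rose 2.04-fold (adjusted p = 0.0455; chromosome 2, 75675513 to 75704663). The other 21 tested genes of the NRF2 and antioxidant list were not called, 14 of 22 lay above control, and the median was 0.09. Nqo1, a standard NRF2 target, stood at 5.55, 3.9 and 3.05 CPM in control and 4.12, 8.29 and 7.04 CPM in HFD livers, with overlap (adjusted p = 0.693). Gclc, the rate-limiting enzyme of glutathione synthesis, stood at 458 ± 40.7 against 319 ± 8.88 CPM with no overlap (adjusted p = 0.353).

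Several called genes encode secreted signals or carriers. Enho encodes the liver peptide adropin. It fell from 18.7, 25.3 and 20.4 CPM in control to 3.75, 4.18 and 4.75 CPM in HFD livers, 5.02-fold higher in control (log2 -2.33, SE 0.22, adjusted p = 0.00547; chromosome 4, 41638144 to 41640302), and both groups were tight. Inhbe, named here after its values were seen, encodes the beta subunit of activin E, a secreted protein of hepatocytes. It stood at 15.2, 18.3 and 13.5 CPM in control and 34.3, 40.2 and 32.2 CPM in HFD livers, a 2.27-fold rise (adjusted p = 0.0484). Serpina7, which encodes thyroxine-binding globulin, rose 3.81-fold from 45.2, 38.7 and 41.4 CPM to 115, 173 and 189 CPM (adjusted p = 0.0139), with HFD replicate 1 the lowest HFD liver but still more than 2 times the highest control.

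Defence and immune genes were called in both directions. Cxcl1, a chemokine that draws neutrophils, stood at 8.12, 38.5 and 33.2 CPM in control and 2.25, 1.98 and 1.34 CPM in HFD livers, 14.7-fold higher in control (adjusted p = 0.0353), and the controls were themselves spread widely. Defb1, a beta-defensin, stood at 1.34, 1.09 and 1.52 CPM in control and 3.75, 12.5 and 8.78 CPM in HFD livers, a 6.44-fold rise (adjusted p = 0.0484). Tlr12, a Toll-like receptor, stood at 2.06, 2.09 and 2.42 CPM in control and 7.49, 9.91 and 6.09 CPM in HFD livers, a 3.57-fold rise (adjusted p = 0.0484). H2-Q1, a class I histocompatibility gene with close copies whose reads may be shared, stood at 8.02, 7.99 and 3.76 CPM in control and 28.8, 46.2 and 25.7 CPM in HFD livers, a 5.12-fold rise (adjusted p = 0.0353). In the list of interferon-responsive genes 18 of 28 lay above control, 0 were called and the median was 0.07.

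Zfp36 encodes tristetraprolin, which shortens the life of inflammatory messages, and counts among the immediate early genes. It stood at 94.4, 69.7 and 76.7 CPM in control and 36.9, 28.4 and 38.8 CPM in HFD livers, 2.31-fold higher in control (adjusted p = 0.0484), with no overlap. Of 16 immediate early genes tested 5 lay above control, Zfp36 was the only call, and the median was -0.50. Wholly below control were 5, against 6.81% of all tested genes. Junb stood at 34.2, 41.1 and 28.1 CPM in control and 17, 6.83 and 8.31 CPM in HFD livers (adjusted p = 0.082; 0.0158 with the replicate block). Egr1 stood at 21.6, 25.2 and 85.8 CPM in control, where replicate 3 was far above the rest, and 12.4, 2.94 and 2.22 CPM in HFD livers (adjusted p = 0.275). Fos, the first gene of the list, stood at 2.06, 3.54 and 2.51 CPM in control and 2.43, 0.954 and 1.03 CPM in HFD livers. Without HFD replicate 1 the median was -0.75 and 3 genes were called lower.

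Ppard and Sox9 were the transcription factors called lower. Ppard, which encodes the nuclear receptor PPARδ, stood at 14, 14.7 and 11.8 CPM in control and 5.06, 1.61 and 2.45 CPM in HFD livers, 4.79-fold higher in control (adjusted p = 0.0484). Sox9, a factor of bile duct cells and of hepatocytes near the portal vein, stood at 9.36, 9.08 and 7.44 CPM in control and 3.18, 1.91 and 1.82 CPM in HFD livers, 3.9-fold higher in control (adjusted p = 0.0417). In both genes HFD replicate 1 lay nearest the controls. Other bile duct markers were near their floor, with 11 and 5 reads for Krt7, 5 and 7 for Krt19 and 13 and 15 for Epcam over the 3 control and the 3 HFD libraries, and 0 for Cftr. The summed level of the 10 bile duct markers was 47.4, 38.4 and 42.8 CPM in control and 58.0, 40.2 and 29.7 CPM in HFD livers, so it overlapped between the diets.

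The remaining calls were of mixed function. Rad51b, a recombination repair gene, rose 20.7-fold from 0.514, 0.454 and 0.269 CPM to 3.93, 15.7 and 5.85 CPM (adjusted p = 0.0353), from 13 reads over the controls. The uncharacterised gene 2010003K11Rik rose 5.21-fold from 8.53, 13.1 and 10.3 CPM to 36.9, 91 and 38.1 CPM (adjusted p = 0.0417). HFD replicate 2 was the highest library for both, as it was for Defb1. Clstn3, a calsyntenin gene named after its values were seen, rose 2.41-fold from 14.6, 11.9 and 10.6 CPM to 31.5, 28 and 30.1 CPM (adjusted p = 0.0417). Loxl4, a lysyl oxidase relative that crosslinks matrix proteins, fell from 11.6, 8.99 and 9.5 CPM to 1.69, 1.1 and 2.53 CPM (adjusted p = 0.0327). Slc34a2, a sodium-phosphate cotransporter, fell from 4.11, 4.08 and 6.72 CPM to 0.936, 0.954 and 0.633 CPM (adjusted p = 0.0417). Slco2a1, the prostaglandin transporter, fell from 36.7, 39.3 and 63.3 CPM to 14.8, 14.2 and 18.4 CPM (adjusted p = 0.0455). The transcribed pseudogene Gm4956 fell from 27, 28.5 and 33.1 CPM to 10.5, 8.44 and 10.8 CPM (adjusted p = 0.026). None of these 4 falling genes had an HFD liver near its controls.

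No gene of glucose metabolism and insulin response was called, but 19 of 26 lay above control and the median was 0.36. In 8 all HFD libraries were above all controls, against 7.59% of all tested genes. Pcx, which makes oxaloacetate from pyruvate, stood at 254 ± 14.9 against 163 ± 13.4 CPM (adjusted p = 0.213). Pklr, the pyruvate kinase of liver, stood at 149, 123 and 117 CPM in control and 174, 233 and 226 CPM in HFD livers (adjusted p = 0.243). In both genes each HFD liver was above each control. Of the 26, 5 were called higher without HFD replicate 1, with a median of 0.25.

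Among 36 genes for the breakdown of amino acids and for urea synthesis none was called and the median was -0.04. Hal, which breaks down histidine, stood at 196, 192 and 227 CPM in control and 90.1, 119.9 and 95.3 CPM in HFD livers (adjusted p = 0.0756; 0.0361 with the replicate block). The urea cycle genes Cps1 and Ass1 stood at 727 ± 210.0 against 1327 ± 193 CPM and 969.6 ± 158 against 1476 ± 118 CPM, with no overlap (adjusted p = 0.275 and 0.356). Their mRNA log2 fold changes in the same livers were 0.10 and 0.12.

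Genes of protein folding and of translation lay below control without single calls. Of 28 genes of the unfolded protein response 5 lay above control and the median was -0.46. Control replicate 3 was highest for 20 of them and HFD replicate 2 lowest for 17. Xbp1, its transcription factor, stood at 156, 249 and 259.9 CPM in control and 144, 90.4 and 109 CPM in HFD livers (adjusted p = 0.229), and Hspa5, the endoplasmic reticulum chaperone BiP, at 489, 881 and 1227 and 501, 329 and 644 CPM (adjusted p = 0.596). Of 85 cytosolic ribosomal protein genes 3 lay above control, 26 had all HFD libraries below all controls against 6.81% of all genes, and the median was -0.29. Rpl12 stood at 337, 302 and 286 CPM in control and 201, 146 and 217 CPM in HFD livers (adjusted p = 0.255). Their mRNA median was -0.26, and many of these genes have processed pseudogenes that can share reads. Of 55 translation factor genes 11 lay above control, 10 were wholly below, and the median was -0.14 in RNC and -0.01 in mRNA. HFD replicate 1 was the lowest library for 31 of the 55, and without it the median was -0.09, with 22 above control. Heat shock proteins had a median of -0.09 (5 of 15 above control), proteasome subunits 0.00094 (20 of 37), oxidative phosphorylation subunits 0.02 (46 of 89) and mitochondrial ribosomal proteins -0.07 (24 of 78), with no calls.

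Genes for complement and coagulation proteins of plasma also lay mostly below control. Of 30 tested 6 lay above, 6 were wholly below (against 6.81% of all tested genes), none was called, and the median was -0.21. F11, coagulation factor XI, stood at 68.4, 63.6 and 56.8 CPM in control and 31.8, 21.6 and 36.8 CPM in HFD livers (adjusted p = 0.107; 0.0391 with the replicate block), and C8b, a part of the membrane attack complex, at 232, 286 and 383 and 148, 49.6 and 112 CPM (adjusted p = 0.161). Cfd, complement factor D, was the exception, at 2.98, 0.908 and 1.61 CPM in control and 21.9, 7.34 and 10.8 CPM in HFD livers (adjusted p = 0.0756; 0.00103 with the block). Cfd is also made by fat cells, and it is 1 of 12 fat cell markers, of which 6 had enough reads to be tested and 3 of these lay above control. The summed level of the 12 was 6122, 5488 and 4895 CPM in control and 3215, 3941 and 3907 CPM in HFD livers, most of it from Car3, which the liver also expresses. Over the 3 control and the 3 HFD libraries Fabp4 had 386 and 508 reads, Cidea 0 and 11, Adipoq 5 and 0, and Plin1 0 and 0. Their part in the Cfd value was not tested. Of 23 acute phase genes 7 lay above control and the median was -0.06, or -0.48 without HFD replicate 2. The fibrinogen gene Fgb stood at 2658, 4188 and 4193 CPM in control and 1668, 2254 and 2285 CPM in HFD livers (adjusted p = 0.276), and Saa1 at 33.2, 67.3 and 95.3 and 22.7, 85.8 and 22.3 CPM, with the highest value in HFD replicate 2.

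**Figure D4:**
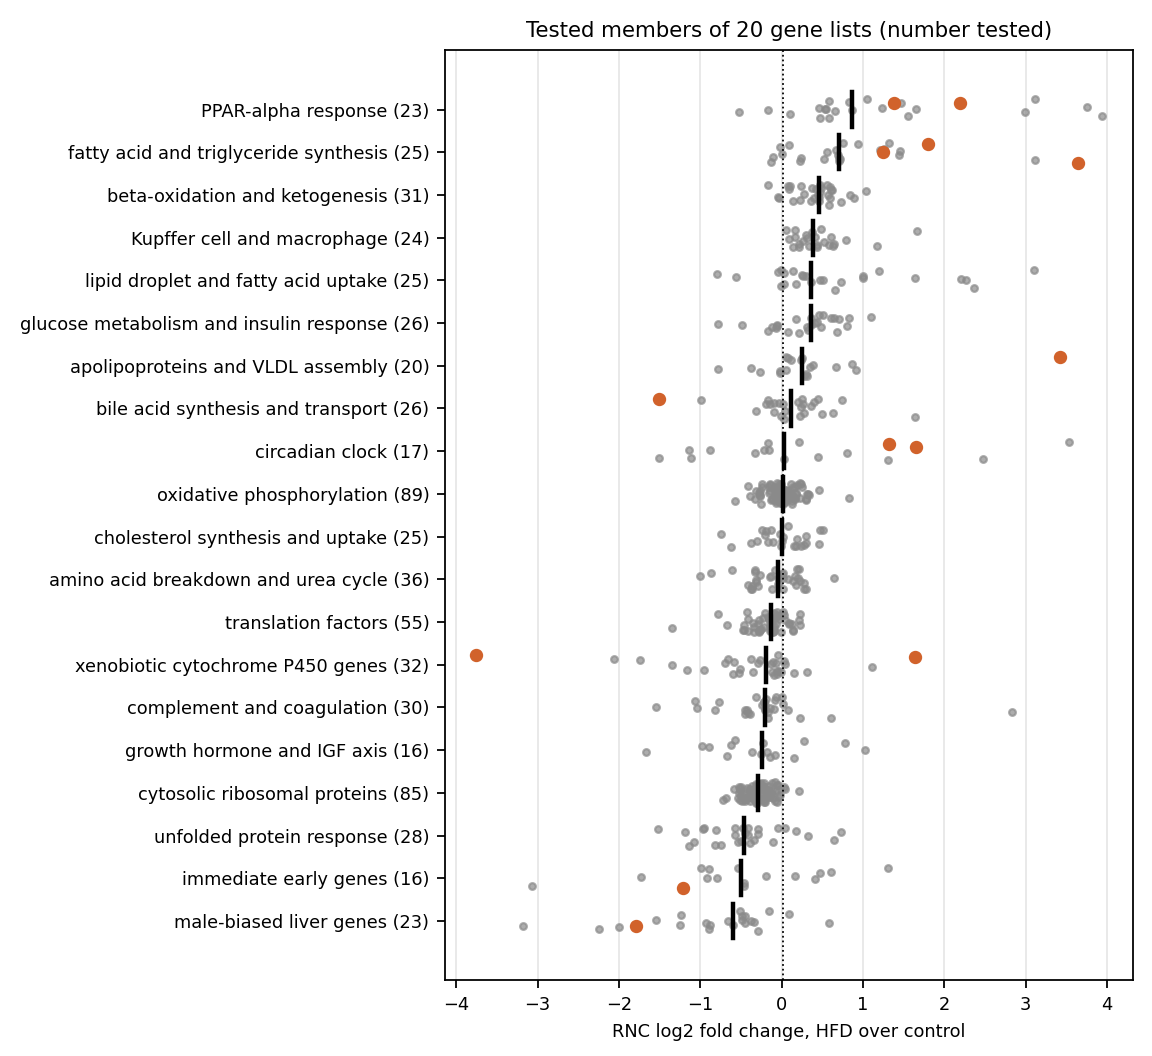
Log2 fold change in RNC (HFD over control) of every tested member of 20 gene lists, 1 point per gene; orange points are called genes, black bars list medians and the dotted line the median of all 11480 genes (0.02). Fatty acid and triglyceride synthesis (0.71) and the PPARα list (0.87) lie to the right, and male-biased genes (-0.60), the unfolded protein response (-0.46) and cytosolic ribosomal proteins (-0.29) to the left.

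Markers of the tissue and of other liver cells gave the following levels. All 10 hepatocyte markers were high in every library, with Alb at 71688 ± 16995 against 75420.0 ± 9838 CPM, 1 of 10 above control and a median of -0.26, and the libraries are liver as labelled. HFD replicate 1 was the lowest library for 9 of the 10, and without it 4 lay above control and the median was -0.14. All 24 Kupffer cell and macrophage markers lay above control, 4 with no overlap (7.59% over all genes) and 0 called, with median 0.39. Their summed level was 588, 639 and 628 CPM in control and 649, 1132 and 662 CPM in HFD livers, and HFD replicate 2 was highest for 20 of the 24. Without it 15 lay above control and the median was 0.05. Clec4f, a Kupffer cell marker, stood at 77.5, 74.4 and 79 CPM in control and 125, 117 and 80.7 CPM in HFD livers, and Adgre1, the F4/80 antigen, at 2.47, 3.72 and 5.11 and 5.8, 14.6 and 4.83 CPM. Of 8 tested markers of lipid-associated macrophages 6 lay above control with none called, and the summed level of all 10 was 198, 208 and 222 CPM in control and 235, 292 and 223 CPM in HFD livers. Most of that sum was Ctsd, at 139, 160 and 163 CPM in control and 164, 214 and 165 CPM in HFD livers. Trem2, their defining receptor, stood at 0.514, 0.272 and 0.179 CPM in control and 1.87, 0.954 and 1.5 CPM in HFD livers (adjusted p = 0.258), with no overlap. Trem2 was near the floor, with 10 reads over the controls and 42 over the HFD livers, and its mRNA log2 fold change was -0.25. Summed levels overlapped between the diets for endothelial markers (282 to 388 CPM in control, 265 to 411 in HFD) and for erythroid markers (802 to 1606 and 414 to 1189 CPM). The part of cell makeup in the gene results was not tested.

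In the total mRNA of the same livers 12276 genes were tested and 1 was called, Mfsd2a, which is 0.00815% of those tested, while 355 had an unadjusted p under 0.05 against 888 in RNC. The spread between mRNA libraries was larger, with a biological coefficient of variation of 0.348 against 0.247 in RNC. All 32 genes called in RNC had the same sign in mRNA, and in 23 the mRNA groups did not overlap either. How often other genes shared their sign in RNC and mRNA, or did not overlap in mRNA, is not given here. These counts therefore have no baseline, and as the mRNA came from the same livers they are no independent check. The 32 genes were chosen by their RNC test. A larger fold in RNC than in mRNA, seen in 25 of the 32, is therefore no result of its own.

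Mfsd2a stood at 2.94, 1.89 and 1.98 CPM in control mRNA and 155, 284 and 107 CPM in HFD mRNA (log2 6.32, SE 0.52, adjusted p = 0.00722). Apoa4 had an mRNA log2 fold change of 3.39 and Enho one of -2.43, beside 3.42 and -2.33 in RNC. Nfe2l2 had nearly the same change in both, 1.10 in mRNA and 1.03 in RNC, but its mRNA levels overlapped between the diets. For these genes the ribosome-bound pool and the total pool gave like values.

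The change in the ratio of RNC to mRNA between the diets was tested for 12541 genes as an interaction in edgeR, and 0 were called (0%), with 107 at an unadjusted p under 0.05. DESeq2 also called 0. The interaction fit treats the RNC and mRNA libraries of a liver as separate samples, and a fit with the animal as a block called 0 as well, with 117 at an unadjusted p under 0.05. Among the 32 genes 4 had an unadjusted p under 0.05, and all had an adjusted p of 1.0. Cyp2c70 fell in RNC by 1.51 on the log2 scale while its mRNA stood at 348, 189.6 and 286 CPM in control and 462, 104 and 212 CPM in HFD livers (log2 -0.083; ratio log2 -1.42, unadjusted p = 0.0354). The log2 ratio changes of the other three were 2.07 for Osbpl3, 1.40 for H2-Q1 and 0.99 for Nr1d2. With 3 livers a group, these ratio changes were not distinguishable from the spread between libraries after adjustment.

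**Figure D5:**
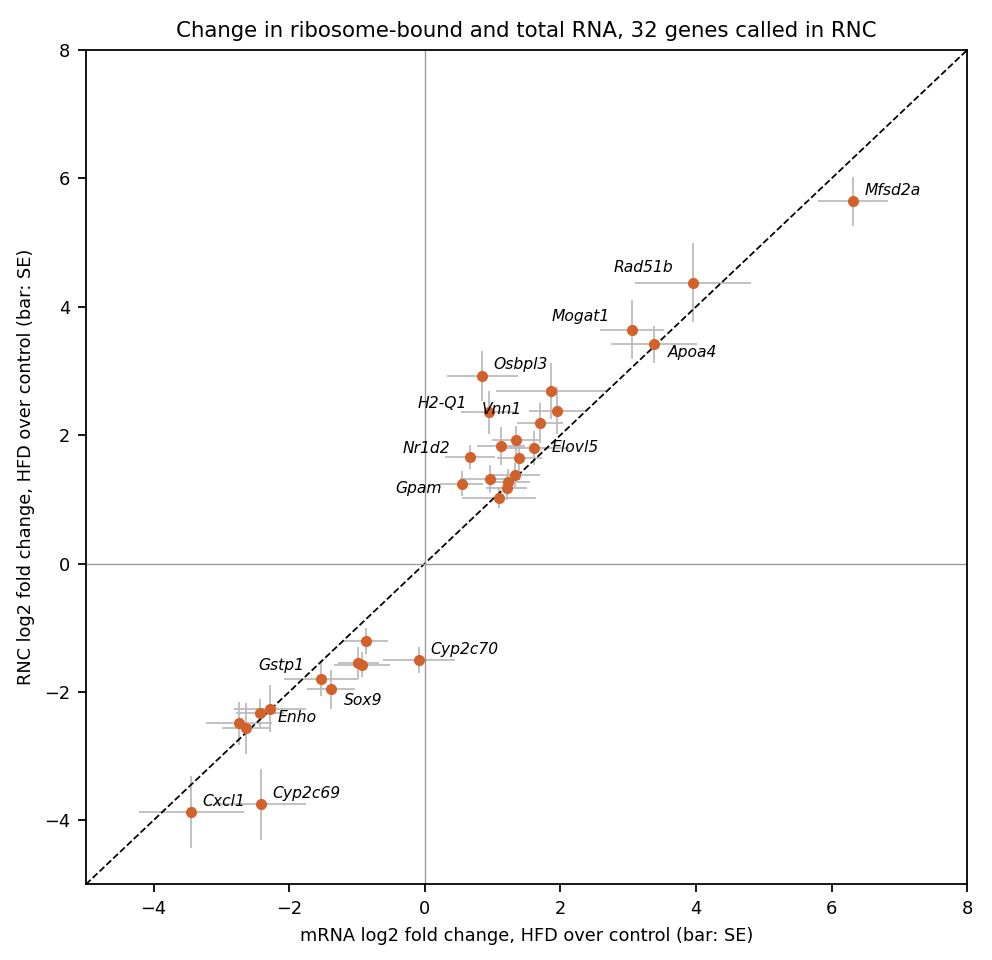
Log2 fold change (HFD over control) of the 32 called genes in RNC against that in mRNA of the same livers, with standard errors from edgeR on both axes; the dashed line marks equal change. All 32 points have the same sign on both axes, and Cyp2c70, at -1.51 in RNC and -0.08 in mRNA, lies far from the line.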

How the data were processed

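Poly(A) RNA of ribosome-nascent chain complexes and of total liver RNA was sequenced from the livers of 3 mice per diet. Per the labels, replicates were biological. The authors converted base calls with bcl2fastq and used build mm10 (GRCm38), per the submitters' processing notes, and mapped reads to RefSeq RNA sequences, per the series' design text. No source used here names the aligner, says how reads that fit several genes were handled, or whether strand was used. The deposited files hold raw read counts per gene, used here, and RPKM, used only to find the authors' library totals, of which 0.765% to 13.8% was in no listed gene in the 6 RNC libraries.

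Counts were tested in R 4.3.3 with edgeR 4.0.16 (TMM, filterByExpr with a minimum count of 10 and a total of 15, robust quasi-likelihood fit, two-sided, Benjamini-Hochberg over all tested genes, threshold 0.05), on the 3 HFD and 3 control libraries of a kind. The ratio of RNC to mRNA was tested as an interaction over 12 libraries. DESeq2 1.42.0, limma 3.58.1 (voom), other scalings and filters, all 9 RNC libraries, each library left out and a replicate block were alternatives. The procedure was tested on simulated data.

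Control and HFD livers share replicate numbers, and the labels do not say whether a number marks a batch. Deviations from the group means of same-numbered RNC libraries correlated at 0.446, 0.154 and 0.126. Differently numbered pairs reached 0.332 (control replicate 3 with HFD replicate 2) and 0.273 (control replicate 2 with HFD replicate 3), and the rest were negative. These values do not show that a number marks a batch. The blocked values are given as an alternative, mainly for named genes where they change a call, and the block raised the adjusted p of others. In mRNA the correlations were -0.599, 0.456 and 0.447, and no pairing was taken there. RNC and mRNA libraries of the same diet and number were taken as the same liver. Between these, deviations correlated at -0.0314, -0.0734 and 0.385 in control replicates 1, 2 and 3. In HFD replicates 1, 2 and 3 they correlated at 0.742, 0.0225 and 0.598, so these values do not show the match for every liver.

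Genes and lists were chosen with earlier results of these data known, and so was the use of 6 libraries. Named genes are the 15 largest rises and all 12 falls among calls (the rule allowed 15), the 4 smallest p and the first members of each list, and others as said; a few such genes are not reported here. Symbols were matched to RefSeq (23720 by symbol, 738 by accession, 81 unmatched). For single libraries, 3 reads was taken as the floor, which covers counting error only.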

Additional observations from a re-analysis of the deposited data

How the results depend on the processing

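The RNC count of 32 called genes was 180 with DESeq2 (107 higher and 73 lower, all 32 included), 71 with no filter on low counts, 1 with all 9 RNC libraries and 87 with the replicate number as a block. Leaving out 1 library at a time gave 1 to 304, with 304 without HFD replicate 1 (159 higher and 145 lower). The mRNA count of 1 was 57 with DESeq2, 10 with no filter, 2 with all 9 libraries, 2 with the replicate block and 0 to 3 with 1 library left out. Other scalings, voom, a filter at 1 CPM and a fit that was not robust left the RNC count between 26 and 31. The ratio of RNC to mRNA gave 0 calls under every alternative run. The cause of these differences was not tested. All 32 genes kept their sign in every alternative, list medians in 377 of 420 combinations of list and setting, and named genes in 2752 of 2772. For the 32, whose groups did not overlap, the sign was largely fixed in advance. The replicate block ended none of the 32 calls. List counts without HFD replicates 1 and 2 were alternatives chosen after seeing the data. The 3 reads that a single library needs stood for up to 0.542 CPM in the shallowest RNC library, so differences between genes below that level were not detectable.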

Other observations

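Genes in no list, not called and averaging 50 CPM or more are given here by smallest p, 5 per direction. Paqr7, a progestin receptor of the membrane, stood at 36.9, 36.8 and 30.02 CPM in control and 71.9, 78.6 and 59.3 CPM in HFD RNC (adjusted p = 0.0757; 0.0181 with the replicate block). Hamp2, a close copy of the hepcidin gene, stood at 37.8, 57 and 32.1 CPM in control and 108, 269.7 and 122 CPM in HFD RNC (adjusted p = 0.0757; 0.00183 with the block). Hykk, a hydroxylysine kinase, stood at 95.2 ± 22.3 against 44.3 ± 6.58 CPM (adjusted p = 0.0853; 0.0171 with the block), Tceal8 at 74 ± 21.5 against 31.1 ± 6.28 CPM (adjusted p = 0.0888; 0.00832 with the block), and the water channel gene Aqp8 at 291 ± 108 against 114 ± 19.1 CPM (mean ± SD, n = 3). In all 5 genes each HFD liver lay above each control.

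Egfr, the epidermal growth factor receptor of hepatocytes, stood at 130.5, 384 and 370.0 CPM in control and 90.1, 41 and 83 CPM in HFD RNC (adjusted p = 0.107), and control replicate 1 lay nearest the HFD livers. Csad, which makes hypotaurine for taurine, stood at 78.6 ± 15.6 against 153 ± 16.4 CPM, and Mug1, a protease inhibitor of plasma, at 868 ± 30.4 against 1444 ± 169.7 CPM. Afmid, of tryptophan breakdown, stood at 63.5 ± 10.6 against 108 ± 6.53 CPM, and the steroid dehydrogenase gene Hsd17b2 at 162 ± 43 against 294 ± 6.35 CPM. In these 5 genes each HFD liver lay below each control, and none passed the adjusted threshold with or without the block.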
